A study of Mus musculus with 2 samples.

Results

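The genes described here are 10 transcription factors of the mesenchyme that fills the endocardial cushions, the embryonic forerunners of the heart valves. They were taken by symbol from the 32285 genes of the deposited count tables: Msx1, Msx2, Prrx1, Prrx2, Tbx20, Tbx2, Tbx3, Twist1, Snai1 and Snai2. In the cushions, endocardial cells lose their junctions, enter the matrix as mesenchyme and later become the interstitial cells of the leaflets. BMP signals from the atrioventricular myocardium act upstream of several of these factors. SNAI1 and SNAI2 are zinc-finger repressors of cadherin genes, MSX1 and MSX2 are homeodomain factors that act redundantly in the mouse atrioventricular cushion, and TWIST1 is a basic helix-loop-helix factor of migrating and dividing mesenchyme. TBX20, TBX2 and TBX3 share the T-box DNA-binding domain, and PRRX1 and PRRX2 are paired-related homeodomain factors of embryonic connective tissue.

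The mutant library came from Nfatc1-Cre, Dicer loxp/loxp embryos and the control library from wild-type embryos, both at E17.5, late in mouse gestation. For each genotype the mitral leaflets of 3 to 4 hearts were pooled, dissociated with 0.05% trypsin and sorted on a dye for non-viable cells, and 1 droplet library of 3′ ends was made with unique molecular identifiers (UMIs), which count captured RNA molecules. DICER1 cuts microRNA precursors into mature microRNAs, and Nfatc1 is expressed in endocardium and valve endothelium, so the Cre reaches these cells and cells that descend from them. The labels give no Cre or loxP allele for the control embryos, and the deletion cannot be seen in single cells. Each genotype has a single library, so genotype, pool of embryos and library preparation cannot be told apart. Levels are therefore set side by side without a test, and every 95% interval below covers counting error alone.

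After filtering, 6190 mutant cells with a median of 9497 UMIs and 10297 control cells with a median of 5665 UMIs remained, from 69475632 and 70221728 UMIs in all barcodes of the mutant and the control library. Cells were typed by Xist and Y-linked genes. The mutant library held 42.5% female-type and 37.1% male-type cells, and the control library 93.5% female-type cells and a single male-type cell, so the sex of the pooled embryos differs with genotype. The 2 libraries shared 19 cell barcodes, 0.230% of the mutant and 0.149% of the control barcodes. Cells of both were clustered together into 27 clusters, which were named "-like" from marker genes that include none of the 10 factors, and clusters that held no clear class (20.8% of mutant and 15.6% of control cells) stayed unnamed. Twist1 and Tbx2 were among the variable genes used to cluster, so their differences between clusters are given as a description. Cluster 0, led by Matn4 and Col9a1, held 9 of 9 stromal and 8 of 11 valve interstitial markers. These lists named the cluster, so the count does not check the labelled tissue. Coronary endothelial-like cells were 23.7% of mutant and 16.9% of control cells. Dicer1 stood at 39.0 CPM (UMIs of a gene scaled to the summed UMIs of its class) in mutant and 90.2 CPM in control valve endothelial-like cells, and at 55.3 CPM in mutant and 73.3 CPM in control valve interstitial-like cells. Its log2 ratio of mutant over control was -1.20 in valve endothelial-like, -0.41 in valve interstitial-like, -0.44 in fibroblast-like and -0.37 in coronary endothelial-like cells. The ratio was -0.35 in mural-like, -0.18 in cardiomyocyte-like and -0.36 in all kept cells. Where the 3′ tags of Dicer1 lie relative to the deleted part was not examined, so these levels do not check the labels. Nfatc1, the gene the Cre line is named for, had 158 CPM in mutant and 130 CPM in control valve endothelial-like cells. Haemoglobin and other erythroid markers summed to 10.8 CPM in mutant and 392.2 CPM in control valve interstitial-like cells, and their part in the results below was not tested.

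Levels are sums of counts over a class in each library, in CPM. Valve interstitial-like cells were 788 mutant and 2525 control cells in cluster 0 and in the dividing cluster 10, led by Hist1h1b and Prc1. Whether other clusters, such as the Dpep1- and Sfrp2-led cluster 4 and the unnamed cluster 9, also hold leaflet mesenchyme was not tested. In valve interstitial-like cells 9 of the 10 factors reached the mean of 10 CPM set for a ratio. At a threshold of 1.5-fold, Msx1 and Prrx2 were lower in mutant cells (2 of 9 measured, beside 1.78% of the 8606 genes measured) and Tbx2 was higher (1 of 9, beside 3.7%). The other 6 measured factors differed by less than 1.5-fold, and the median log2 ratio of mutant over control was -0.13 over the 9 factors and 0.04 over all measured genes. In valve endothelial-like cells, 285 mutant and 1194 control cells of clusters 5 and 13, only Msx1, Twist1 and Tbx20 reached the mean of 10 CPM. None of these 3 was 1.5-fold lower (beside 4.85% of 8640 genes) or higher (beside 7.77%), and their median log2 ratio was 0.30 beside 0.05 over all genes.

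**Figure D1:**
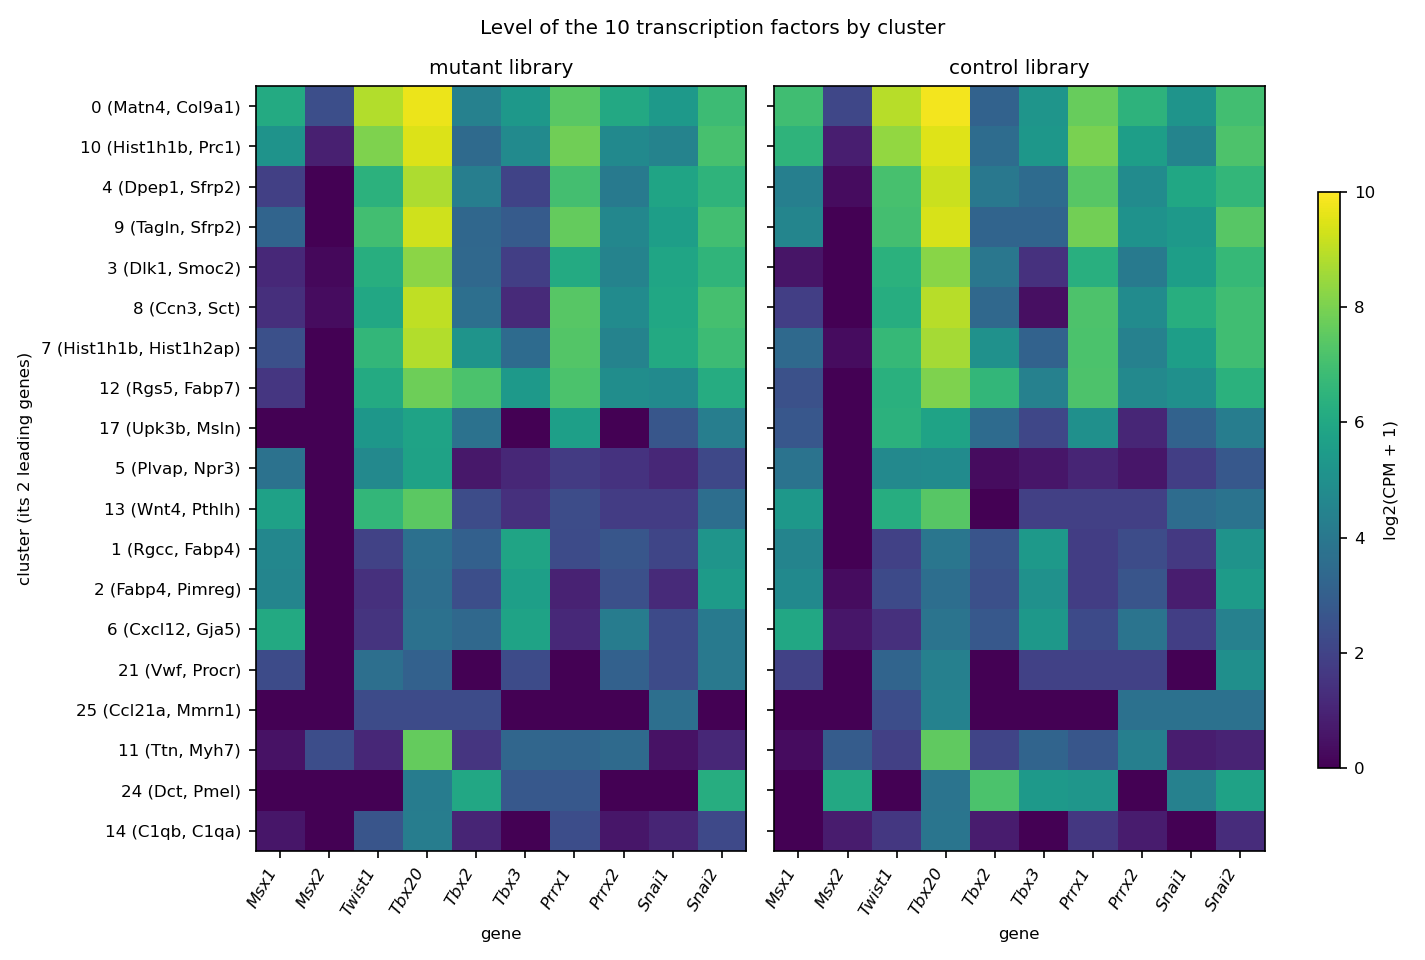
Level of each factor (columns) in 19 clusters (rows, each with its 2 leading genes), as log2(CPM + 1), in the mutant library on the left and the control library on the right. Twist1 and Tbx20 are brightest in cluster 0 in both libraries. Msx1 is bright in the valve interstitial-like clusters 0 and 10 and in the endothelial clusters 6 and 13. Tbx2 is brightest outside melanocyte-like cells in the mural-like cluster 12.

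Msx1 (chr5:37820485-37824583, minus strand, mm10) was the factor furthest apart between the libraries in valve interstitial-like cells. Valve interstitial-like cells held 54.6 CPM in the mutant library (480 UMIs, 95% interval 49.8 to 59.7) and 114.7 CPM in the control library (1714 UMIs, 109.4 to 120.3), a log2 ratio of -1.07 (-1.22 to -0.92) or 2.10-fold lower. The intervals of the 2 libraries did not overlap. A UMI of Msx1 was found in 32.4% of mutant and 39.2% of control cells of this class. With each cell thinned to 2000 UMIs, because mutant cells of this class were deeper (median 10432.5 against 5484 UMIs), the shares were 10.4% of 770 mutant and 19.8% of 2487 control cells. Macrophage-like cells, which should lack the gene, held a UMI in 0.490% of 204 mutant cells and in 0 of 299 control cells, a count that allows a share of up to 1.003%. Macrophage-like cells had median depths of 9501 UMIs in the mutant and 4476 UMIs in the control library.

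The lower level was seen in both clusters of the class and, outside it, in the fibroblast-like cluster 4 and the unnamed cluster 9. In the Matn4-led cluster 0 it was 68.6 CPM in mutant and 122.6 CPM in control cells (log2 ratio -0.84, -1.01 to -0.67). In the dividing cluster 10 it was 34.4 CPM in mutant and 90.8 CPM in control cells (-1.40, -1.71 to -1.10). The dividing cluster held 233 of the 788 mutant and 441 of the 2525 control cells of the class. With the same cluster weights used in both libraries, the class ratio was -0.97. Cluster 9, led by Tagln and Sfrp2 and unnamed, held 8.25 CPM in mutant and 22.1 CPM in control cells (-1.40, -2.20 to -0.70). The fibroblast-like cluster 4, led by Dpep1 and Sfrp2, held 2.69 CPM from 7 UMIs in mutant and 19.0 CPM from 74 UMIs in control cells (-2.73, -4.18 to -1.71). Levels in these last clusters were well under those of cluster 0 in the same library, and in the Dlk1-led fibroblast-like cluster 3 Msx1 had 1.21 CPM in mutant and 0.474 CPM in control cells, too low for a ratio.

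In endothelial cells the libraries lay close together for Msx1. Valve endothelial-like cells had 29.3 CPM in mutant and 23.8 CPM in control cells (log2 ratio 0.30, -0.10 to 0.69). Their Plvap-led cluster 5 had 12.7 CPM in mutant (22 UMIs) and 13.1 CPM in control cells (50 UMIs). Their Wnt4-led cluster 13 had 52.3 CPM in mutant (65 UMIs) and 39.4 CPM in control cells (103 UMIs), with overlapping intervals. Coronary endothelial-like cells had 23.1 CPM in mutant and 23.5 CPM in control cells (-0.02, -0.27 to 0.23). Cluster 6, endothelial-like with no subclass and led by the arterial genes Cxcl12 and Gja5, had 66.8 CPM in mutant and 63.1 CPM in control cells (0.08, -0.25 to 0.42). The intervals of the ratios in valve endothelial-like cells, coronary endothelial-like cells and cluster 6 include no difference and do not overlap that of the valve interstitial-like ratio. Whether the mesenchymal and endothelial ratios differ beyond the spread between embryos was not tested. Valve interstitial-like cells, which were 12.7% of mutant and 24.5% of control cells, held 40.6% of all Msx1 UMIs of kept mutant cells and 70.3% of those of control cells. The order of classes differed too: in the mutant library the endothelial-like cells with no subclass came first at 62.1 CPM, with an interval that overlapped that of valve interstitial-like cells, and in the control library valve interstitial-like cells came first, clear of the endothelial-like cells at 53.5 CPM.

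The promoter window of Msx1, from 250 bases before to 50 bases after the annotated start (chr5:37824536-37824835, minus strand, RefSeq, GRCm38.p6), is shown because Msx1 carries the largest difference and because several of the factors bind E-boxes or TAATTA. Windows were given for 7 of the 10 genes. Both strands were searched for the E-box CANNTG bound by TWIST1, SNAI1 and SNAI2, the T-box motif AGGTGT and the homeodomain core TAATTA. The E-box and the T-box motif can overlap, in CACCTG preceded by A. Of 32851 promoters in the table, 72.3% held an E-box, 13.7% the T-box motif and 5.29% the homeodomain core. The window of Msx1 held 1 E-box, of the form CACCTG, in capitals here, and neither of the other motifs. The window of Prrx2 (chr2:30845117-30845416, plus strand), the other factor that was lower, held none of the 3. It is set on a RefSeq start inside the gene span given below, which begins upstream at chr2:30834972. The letters around that upstream start were not searched.
Msx1: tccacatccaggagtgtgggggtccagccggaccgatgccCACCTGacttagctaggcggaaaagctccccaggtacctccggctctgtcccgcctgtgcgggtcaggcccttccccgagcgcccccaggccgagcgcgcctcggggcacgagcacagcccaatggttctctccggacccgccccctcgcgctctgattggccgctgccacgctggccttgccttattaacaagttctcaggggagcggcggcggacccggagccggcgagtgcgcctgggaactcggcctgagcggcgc
Prrx2: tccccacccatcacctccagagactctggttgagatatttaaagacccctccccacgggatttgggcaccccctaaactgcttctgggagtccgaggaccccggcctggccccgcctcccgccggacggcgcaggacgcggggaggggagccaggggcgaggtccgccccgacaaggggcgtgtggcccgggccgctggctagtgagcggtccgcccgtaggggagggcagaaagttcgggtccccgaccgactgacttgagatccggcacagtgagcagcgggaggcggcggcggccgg
Of the other windows, that of Snai1 held 1 E-box, that of Msx2 1 E-box and 1 homeodomain core, that of Twist1 1 T-box motif, that of Prrx1 1 homeodomain core, and that of Tbx20 none.

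Prrx2 (chr2:30834972-30881251, plus strand) was lower in the mutant library in the same class. Valve interstitial-like cells held 48.8 CPM in mutant (429 UMIs) and 78.0 CPM in control cells (1166 UMIs), a log2 ratio of -0.68 (-0.84 to -0.52), and the intervals of the levels did not overlap. The difference was smaller in cluster 0, with 64.6 CPM in mutant and 88.0 CPM in control cells (-0.44, -0.63 to -0.27), than in the dividing cluster 10, with 26.1 CPM in mutant and 47.8 CPM in control cells (-0.87, -1.25 to -0.51). With the same cluster weights used in both libraries, the class ratio was -0.52 and no longer reached 1.5-fold. Fibroblast-like cells had 19.6 CPM in mutant and 21.7 CPM in control cells (-0.15, -0.46 to 0.17), but their clusters differed in direction. Cluster 3 had 20.97 CPM in mutant (121 UMIs) and 16.6 CPM in control cells (70 UMIs), with overlapping intervals. Cluster 4 was lower in the mutant library, with 16.5 CPM (43 UMIs, 11.96 to 22.27) against 27.2 CPM (106 UMIs, 22.29 to 32.92). Mural-like cells, the pericytes and smooth muscle of vessels, had 28.7 CPM in mutant and 25.1 CPM in control cells (0.19, -0.35 to 0.75). In cardiomyocyte-like cells Prrx2 had 10.9 CPM in mutant and 19.1 CPM in control cells (-0.80, -1.31 to -0.31). There it was the 1 factor of 2 measured that was 1.5-fold lower, beside 1.64% of 7332 genes, and none was higher, beside 1.27%.

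Prrx1 (chr1:163245119-163313710, minus strand), its paralogue, lay within 1.5-fold in valve interstitial-like cells, with 196 CPM in mutant and 217 CPM in control cells (log2 ratio -0.15, -0.23 to -0.06). Both libraries gave it the same order of named classes at the top, valve interstitial-like before mural-like before fibroblast-like cells, with no overlap of neighbouring intervals. Fibroblast-like cells had 87.0 CPM in mutant and 121 CPM in control cells (-0.47, -0.61 to -0.33). Endothelial classes stood at 1.15 to 3.03 CPM in the mutant and 1.71 to 3.57 CPM in the control library, lymphatic cells aside, where no UMI of Prrx1 was counted in either. The 8 and 3 UMIs of Prrx1 in mutant and control macrophage-like cells, 4.20 and 2.09 CPM, set those levels at background.

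Msx2 (chr13:53466884-53473074, minus strand) was near the limit of detection in both valve classes. Valve interstitial-like cells had 2.84 CPM in mutant (25 UMIs) and 2.74 CPM in control cells (41 UMIs), and valve endothelial-like cells had no UMI in either library. Those counts of 0 allow up to 1.01 CPM in mutant and 0.467 CPM in control valve endothelial-like cells. Cardiomyocyte-like cells had 4.37 CPM in mutant and 6.37 CPM in control cells. The highest level was in the control melanocyte-like cells, with 63.9 CPM from 19 UMIs in 54 cells, against no UMI in the 21 mutant cells of that class.

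**Figure D2:**
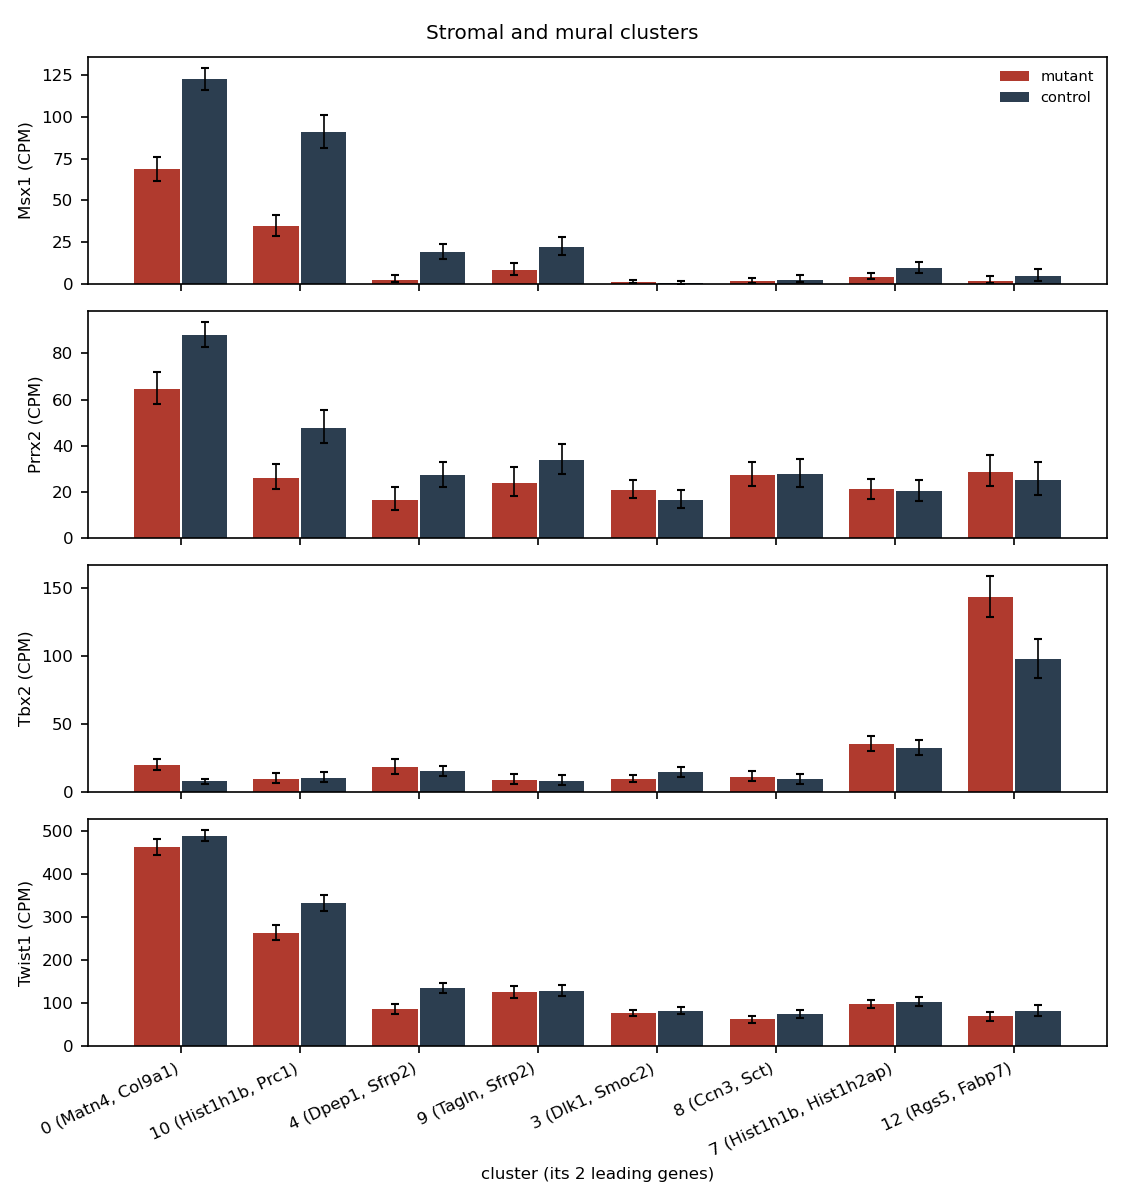
Levels in CPM (bars) with exact 95% Poisson intervals (lines) of 4 factors in 8 clusters, mutant left of control in each pair. Clusters 0, 10, 4 and 3 were named stromal, cluster 12 mural-like, and clusters 9, 8 and 7 stayed unnamed. Msx1 and Prrx2 are lower in mutant cells of clusters 0 and 10, Tbx2 is higher in mutant cells of cluster 0 and of the mural-like cluster 12, and Twist1 is highest in cluster 0 in both libraries.

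Tbx20 (chr9:24718138-24774303, minus strand), a T-box factor of myocardium and endocardium that is needed in the mouse for valve formation, was found in 97.0% of mutant and 96.4% of control valve interstitial-like cells. Its level was 780 CPM in mutant and 856 CPM in control cells (log2 ratio -0.13, -0.18 to -0.09). In both libraries the order of named classes was valve interstitial-like, fibroblast-like, mural-like and cardiomyocyte-like, with 346, 218 and 188 CPM for the last 3 in the mutant and 438, 270 and 180 CPM in the control library. No neighbouring intervals overlapped. Macrophage-like cells had 17.9 CPM in mutant and 13.9 CPM in control cells, so the 11.6 and 13.1 CPM of mutant and control coronary endothelial-like cells are read as background. Valve endothelial-like cells had 106 CPM in mutant and 85.4 CPM in control cells (0.31, 0.11 to 0.51), and their clusters were unlike. In cluster 5, led by Plvap and Npr3, Tbx20 had 53.8 CPM in mutant (93 UMIs) and 27.5 CPM in control cells (105 UMIs), a log2 ratio of 0.97 (0.55 to 1.38). In cluster 13, led by Wnt4 and Pthlh, it had 179 CPM in mutant and 170 CPM in control cells (0.07, -0.17 to 0.31). Fibroblast markers summed to 220 CPM in mutant and 145 CPM in control valve endothelial-like cells, valve interstitial markers to 1471 and 1261 CPM and general stromal markers to 1133 and 1903 CPM. Their part in the Tbx20 levels was not tested.

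Tbx2 (chr11:85832551-85841948, plus strand), a repressor of chamber myocardium genes in the atrioventricular canal, was the factor with a higher level in mutant leaflet mesenchyme. Valve interstitial-like cells had 16.0 CPM in mutant (141 UMIs, 13.5 to 18.9) and 8.50 CPM in control cells (127 UMIs, 7.09 to 10.1), a log2 ratio of 0.92 (0.56 to 1.27). A UMI was found in 13.7% of mutant and 4.55% of control cells, or 3.60% and 1.78% when thinned, against 0.980% and 0.334% of macrophage-like cells before thinning. The difference lay in cluster 0, with 20.2 CPM in mutant and 7.83 CPM in control cells (1.37, 0.95 to 1.80). The dividing cluster 10 had 9.99 CPM in mutant and 10.5 CPM in control cells (-0.08, -0.77 to 0.61). Mural-like cells had far more of it, 143 CPM in mutant and 97.6 CPM in control cells (0.55, 0.30 to 0.82). In melanocyte-like cells it had 63.0 CPM in mutant (11 UMIs) and 145 CPM in control cells (43 UMIs). In valve interstitial-like cells the 9 mural markers summed to 982 CPM in mutant and 1142 CPM in control cells, and the 5 melanocyte markers to 11.4 CPM in mutant and 1.41 CPM in control cells. Their part in the Tbx2 levels was not tested.

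Tbx3 (chr5:119670669-119684724, plus strand), known for its role in the conduction system, was at least as high in coronary endothelial-like as in valve interstitial-like cells. Valve interstitial-like cells had 34.2 CPM in mutant and 37.0 CPM in control cells (log2 ratio -0.11, -0.32 to 0.09). Coronary endothelial-like cells had 53.3 CPM in mutant and 37.7 CPM in control cells (0.50, 0.32 to 0.68), under 1.5-fold, with intervals that did not overlap. Of their clusters, the dividing cluster 2 was past 1.5-fold, with 48.9 CPM in mutant and 31.9 CPM in control cells (0.61, 0.31 to 0.93). Endothelial-like cells with no subclass had 51.1 CPM in mutant and 33.4 CPM in control cells (0.61, 0.21 to 1.02), the only 1.5-fold difference among 5 measured factors there, beside 2.48% of 8075 genes higher and 2.59% lower. That class mixes cluster 6 with cluster 21, which was 41 of the 472 mutant and 80 of the 479 control cells and held 1 Tbx3 UMI in each library. In cluster 6 alone Tbx3 had 54.9 CPM in mutant and 39.3 CPM in control cells (0.48, 0.09 to 0.90), under 1.5-fold. Mural-like cells had 40.8 CPM in mutant (101 UMIs) and 19.9 CPM in control cells (39 UMIs), a log2 ratio of 1.02 (0.49 to 1.61), the only 1.5-fold difference among 8 measured factors, beside 4.25% of 8354 genes higher and 2.61% lower. Valve endothelial-like cells had nearly none, with 4 UMIs in mutant and 9 in control cells, or 1.35 and 1.40 CPM. An antisense gene, Tbx3os1, overlaps Tbx3 and had 115 UMIs in all mutant and 149 in all control barcodes, beside 1591 and 1333 of Tbx3. Whether the counting used the strand is not given in the sources used here.

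**Figure D3:**
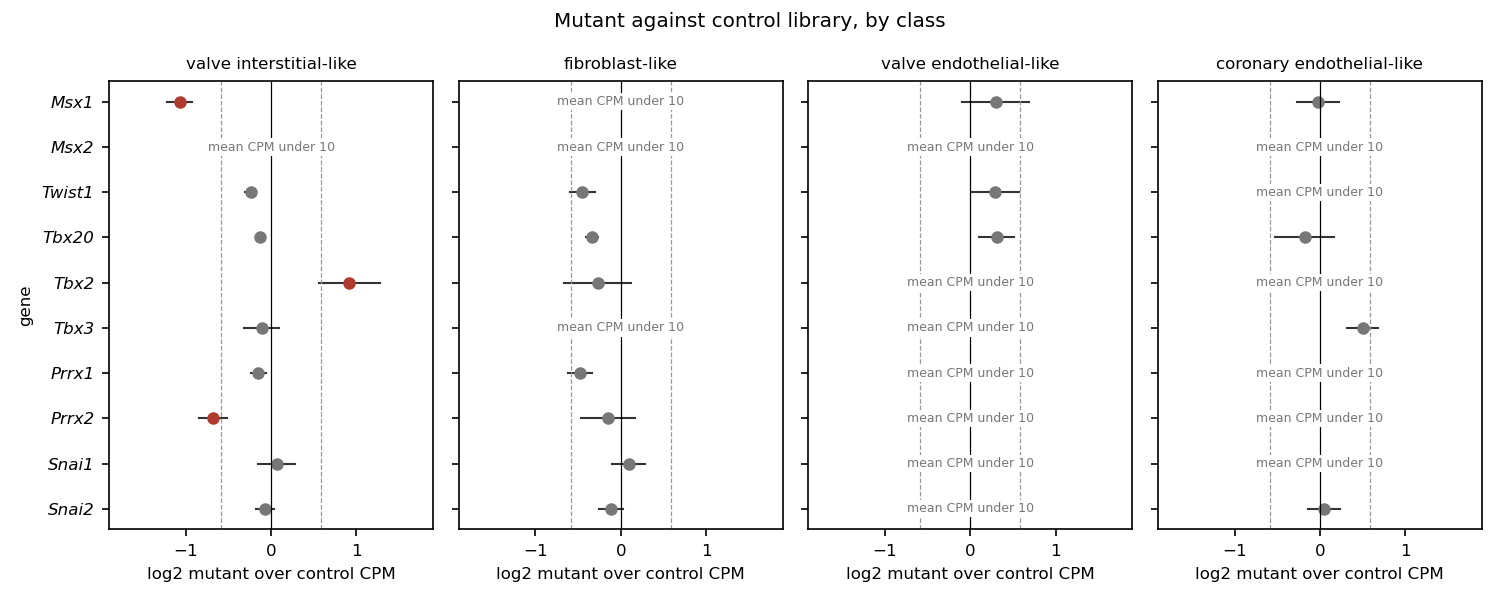
log2 ratio of mutant over control CPM (points) with the exact 95% counting interval (lines) for each factor in 4 classes, with dashed lines at 1.5-fold and red points past it. Msx1 and Prrx2 lie left and Tbx2 right of the dashed lines in valve interstitial-like cells, and no factor with a mean of at least 10 CPM lies past them in the other 3 classes.

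Twist1 (chr12:33957671-33959829, plus strand) differed more between valve interstitial-like and fibroblast-like cells than between the libraries within either class. It was among the genes used to cluster, so this is a description. Valve interstitial-like cells had 381 CPM in mutant and 450 CPM in control cells (log2 ratio -0.24, -0.30 to -0.18). Among the named classes, fibroblast-like cells came next, with 78.7 CPM in mutant and 107 CPM in control cells (-0.45, -0.60 to -0.30). They were not clear of mural-like cells in the mutant and of epicardial-like cells in the control library. The unnamed clusters 9, 7 and 8 had 125, 98.5 and 62.2 CPM in mutant and 128, 103 and 73.8 CPM in control cells. In the Dpep1-led cluster 4 the levels were 85.0 CPM in mutant and 135 CPM in control cells (-0.66, -0.90 to -0.44), and in the Dlk1-led cluster 3 they were 75.9 and 82.1 CPM (-0.11, -0.32 to 0.09). Epicardial-like cells, 43 mutant and 122 control cells, had 38.3 CPM in mutant (21 UMIs) and 84.5 CPM in control cells (75 UMIs), a log2 ratio of -1.12 (-1.91 to -0.43). Among endothelial cells Twist1 marked the Wnt4-led cluster 13, with 96.5 CPM in mutant and 74.3 CPM in control cells (0.38, 0.04 to 0.71). The Plvap-led cluster 5 had 25.4 CPM in mutant and 25.2 CPM in control cells, and coronary endothelial-like cells had 2.33 CPM in mutant and 3.20 CPM in control cells. Macrophage-like cells had 5.25 CPM from 10 UMIs in the mutant and 2.09 CPM from 3 UMIs in the control library.

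Snai1 (chr2:167538195-167542814, plus strand) was, among the named classes, highest in fibroblast-like cells in both libraries, with 57.6 CPM in mutant and 54.0 CPM in control cells (log2 ratio 0.09, -0.10 to 0.28). The unnamed cluster 8, led by Ccn3 and Sct, had 61.4 CPM in mutant and 76.1 CPM in control cells, and the unnamed dividing cluster 7 had 65.8 CPM in mutant and 48.0 CPM in control cells. Valve interstitial-like cells had 33.0 CPM in mutant and 31.6 CPM in control cells (0.06, -0.15 to 0.28). In valve endothelial-like cells Snai1 had 5 UMIs in mutant and 38 in control cells, or 1.68 and 5.91 CPM, and 3 and 28 of these UMIs lay in the Wnt4-led cluster 13. The ratio of those levels was -1.70 (-3.52 to -0.47), at a mean under the 10 CPM set for a ratio, and macrophage-like cells had 2 UMIs in mutant and none in control cells. Snai2 (chr16:14705852-14709385, plus strand) had 123 CPM in mutant and 130 CPM in control valve interstitial-like cells (-0.07, -0.18 to 0.03). Its levels were also close in fibroblast-like cells, with 92.1 CPM in mutant and 99.7 CPM in control cells (-0.12, -0.26 to 0.03), and in coronary endothelial-like cells, with 39.7 CPM in mutant and 38.4 CPM in control cells (0.05, -0.14 to 0.24). The intervals leave no room for a 1.5-fold difference of Snai2 in these 3 classes as far as counting error goes. Valve endothelial-like cells had less of it, with 6.73 CPM in mutant and 8.71 CPM in control cells.

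**Figure D4:**
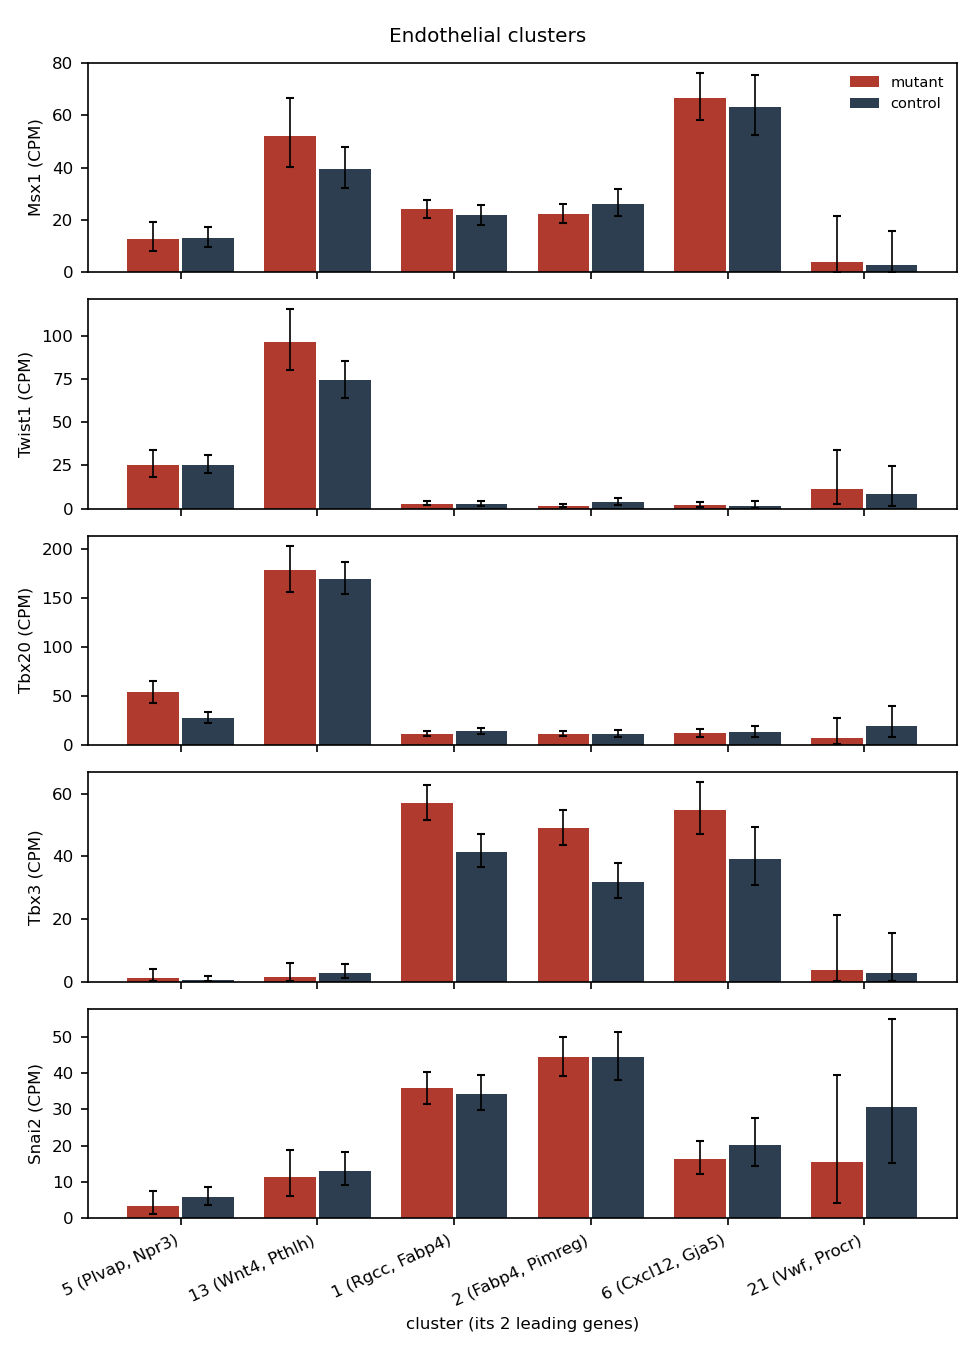
Levels in CPM (bars) with exact 95% Poisson intervals (lines) of 5 factors in the valve endothelial-like clusters 5 and 13, the coronary endothelial-like clusters 1 and 2 and clusters 6 and 21, mutant left of control in each pair. Twist1 and Tbx20 are highest in cluster 13, Tbx3 in clusters 1, 2 and 6, Snai2 in clusters 1 and 2, and Msx1 in cluster 6 with cluster 13 next.

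Fibroblast-like cells had 7 measured factors, of which none was 1.5-fold lower (beside 1.06% of 8288 genes) or higher (beside 1.22%). Their median log2 ratio was -0.27 beside -0.01 over all genes, with Prrx1, Twist1 and Tbx20 at -0.47, -0.45 and -0.34. The class mixed its clusters unequally, with 507 mutant and 621 control cells in cluster 3 and 279 mutant and 668 control cells in cluster 4. In cluster 3 the ratios of Prrx1, Twist1 and Tbx20 were -0.18, -0.11 and 0.03, and in cluster 4 they were -0.39, -0.66 and -0.42. Coronary endothelial-like cells had 4 measured factors and none past 1.5-fold, beside 0.31% of 8076 genes lower and 0.619% higher. The factors also differed in how many were seen together in a cell. A valve interstitial-like cell held UMIs of a median of 5 of the 10 factors in the mutant and 4 in the control library. With cells thinned to 2000 UMIs the means were 2.12 factors in mutant and 2.38 in control cells, and in valve endothelial-like cells they were 0.319 and 0.270.

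The sex of the cells bears on the mesenchymal differences, since nearly all control cells were female-type. For Msx1, male-type mutant valve interstitial-like cells had 47.4 CPM and female-type mutant cells 57.2 CPM, against 114.7 CPM in female-type control cells, so both kinds of mutant cell lay below. For Prrx2 the levels were 34.0 CPM in male-type and 54.3 CPM in female-type mutant cells, against 77.5 CPM in female-type control cells. Tbx2 had 7.75 CPM in male-type mutant cells (18 UMIs), 20.5 CPM in female-type mutant cells (114 UMIs) and 8.37 CPM in female-type control cells (120 UMIs). Of the typed mutant cells, only the female-type stood higher for Tbx2. How the typed cells divide between clusters 0 and 10 is not given here. Twist1 had 307 CPM in male-type and 419 CPM in female-type mutant cells, against 451 CPM in female-type control cells. Male-type and female-type mutant cells come from different embryos of the pool, and sex and embryo cannot be told apart.

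**Figure D5:**
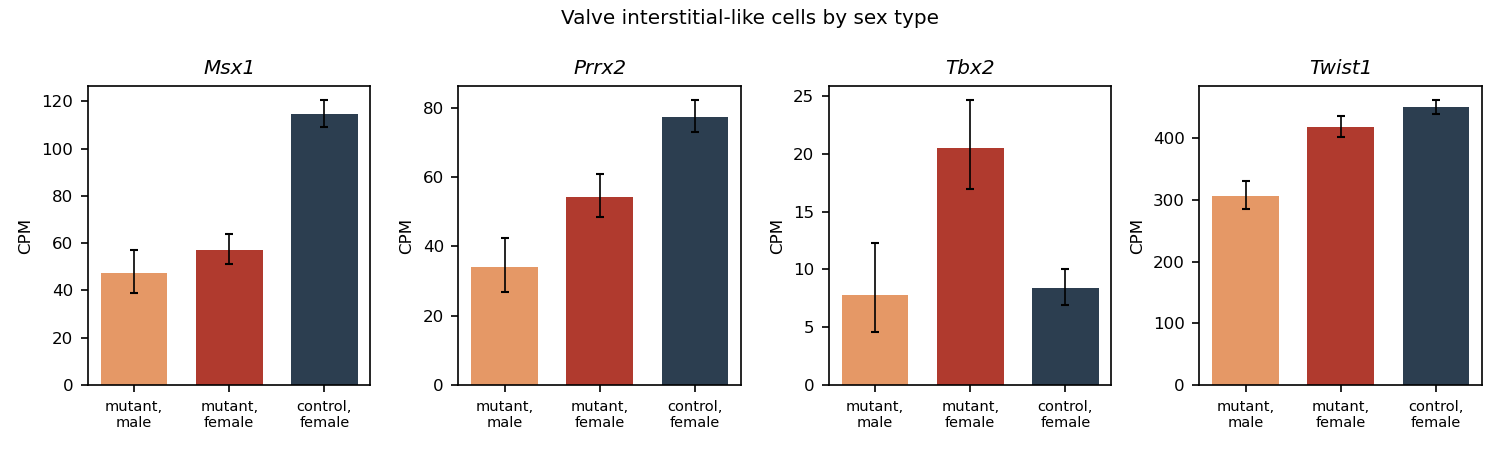
Levels in CPM (bars) with exact 95% Poisson intervals (lines) of 4 factors in valve interstitial-like cells, from left to right male-type mutant, female-type mutant and female-type control cells. Msx1 is at 47.4 and 57.2 CPM in the mutant cells and 114.7 CPM in control cells, and Tbx2 is high in female-type mutant cells only.

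Because DICER1 makes microRNAs, the longest annotated untranslated 3′ end of each of the 10 genes (GENCODE M21, GRCm38) was searched for seed matches of 15 microRNA families of heart, vessel and mesenchyme, and microRNA levels themselves are not part of these libraries. A match to seed bases 2 to 8 was found 5 times in Snai1, 5 times in Prrx1, 6 times in Tbx20, 2 times in Snai2, and once each in Msx1, Tbx2 and Tbx3. Msx2, Twist1 and Prrx2 held none. Prrx1 and Tbx20 have long untranslated 3′ ends, of 4891 and 7314 bases, where such matches are common: 38.1% of the 1101 genes of like length to Prrx1 held a miR-30 match, against 8.41% of the 2568 like Snai1. A miR-29 match was held by 7.70% of genes of like length to Msx1, and a miR-21 match by 3.95% of those like Tbx2. A miR-34 match was held by 9.27% of those like Snai1, and a miR-30 match by 11.2% of those like Snai2. The share of genes with a match to any of the 15 families is not given here. Mature microRNAs are shown with the seed in capitals, from RefSeq, for 4 of the families: those of the only matches in Msx1 and Tbx2, and those of the 8-base matches in Snai1.
miR-29a-3p: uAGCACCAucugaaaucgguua
miR-21a-5p: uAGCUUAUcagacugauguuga
miR-30a-5p: uGUAAACAuccucgacuggaag
miR-34a-5p: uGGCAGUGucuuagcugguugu
The matching stretches of these genes, and the miR-30 match of Snai2, follow with the seed match in capitals. The other matches, of let-7 and miR-200b in Snai1, of miR-200b in Snai2, of miR-17 in Tbx3 and all those in Tbx20 and Prrx1, are not printed.
Msx1, miR-29 (chr5:37820710-37820739): gggcagggcgcatgcTGGTGCTtcaccaag
Tbx2, miR-21 (chr11:85841606-85841635): tggtaatttgtgtaaATAAGCTttaaggtt
Snai1, miR-30 (chr2:167542698-167542727): gccccgggagaaagaTGTTTACattttaaa
Snai1, miR-34 (chr2:167542122-167542151): gctcaccctcctcctCACTGCCaggactcc
Snai2, miR-30 (chr16:14708297-14708326): gtggcgcaaccagTGTTTACtcaaacagaa
Snai1, with 2 of its 5 matches extended to 8 bases, had a log2 ratio of 0.06 in valve interstitial-like cells, and Tbx2, with 1 match, had 0.92. Msx1, with 1 match, and Prrx2, with none, were the factors that were lower. Prrx1 and Tbx20, each with 2 matches extended to 8 bases, had -0.15 and -0.13. Snai2, with 2 matches, Tbx3, with 1, and Twist1, with none, had -0.07, -0.11 and -0.24. A link between matches and ratios was not tested. A match is a description of the letters and not a shown site.

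Other genes of the programme were taken from fixed lists. Of 33 partner transcription factors, 28 were measured in valve interstitial-like cells, of which 0 were 1.5-fold lower and 3 higher, beside 1.78% and 3.7% of all 8606 genes, shares that also stand beside the other list counts of this class. Those 3 were Sox11, a SOX factor of embryonic mesenchyme, with 64.8 CPM in mutant and 32.6 CPM in control cells (log2 ratio 0.99), Tbx18 with 92.6 and 59.97 CPM (0.63), and Foxc2 with 29.5 and 19.4 CPM (0.60). Tcf21, a fibroblast factor, had 89.5 CPM in mutant and 65.3 CPM in control cells (0.46). The BMP list, with 12 of 21 measured, held no gene past 1.5-fold in this class. Its largest ratios were -0.45 for Bmp6, 0.24 for Bmpr2, 0.17 for Acvr2a and -0.16 for Bmp2. Of 20 genes that the factors bind or repress in earlier work, 13 were measured, 1 lower and 4 higher. Col2a1, a cartilage-type collagen, had 38.9 CPM in mutant and 74.3 CPM in control cells (-0.93). Cdh5, the endothelial cadherin, had 19.3 CPM in mutant and 8.43 CPM in control cells (1.20), beside endothelial markers that summed to 122 and 72.1 CPM there, whose part was not tested. Cdkn1a, a cell-cycle inhibitor, had 28.2 and 12.5 CPM (1.17), and Gja1, a gap-junction protein, 31.6 and 17 CPM (0.90). All 4 proliferation genes, Mki67, Top2a, Ccnb1 and Cdk1, were higher in mutant cells, with a median log2 ratio of 0.88, in a class whose dividing cluster held more of the mutant cells.

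In valve endothelial-like cells 22 of the 33 partner factors were measured, with 1 lower and 3 higher, beside 4.85% and 7.77% of all 8640 genes, shares that also stand beside the other list counts of this class. Tcf4, an E-protein partner of basic helix-loop-helix factors, had 254 CPM in mutant and 428 CPM in control cells (log2 ratio -0.75). Hey2, a Notch target, had 65.6 CPM in mutant and 28.8 CPM in control cells (1.19), Sox11 139 and 70.3 CPM (0.98), and Mecom 110 and 64.4 CPM (0.78). The BMP list had 12 measured genes, 0 lower and 3 higher. Bmp4, a BMP ligand, had 94.5 CPM in mutant and 34.8 CPM in control cells (1.44), Acvr2b, a receptor, 33.3 and 14.2 CPM (1.23), and Smad6, an inhibitor of the pathway, 120 and 74.8 CPM (0.68). The receptor Bmpr1a had 135 CPM in mutant and 92.3 CPM in control cells (0.55). Of the genes the factors bind or repress, 10 were measured, 2 lower and 1 higher: Cldn5, an endothelial junction protein, with 20.9 CPM in mutant and 73.1 CPM in control cells (-1.80), Postn, a matrix protein, with 269 and 690 CPM (-1.36), and Cdkn1a with 99.9 and 52.9 CPM (0.92). Cdh5 had 565 CPM in mutant and 419 CPM in control cells (0.43). Of the proliferation genes only Cdk1 was past 1.5-fold, with 98.5 CPM in mutant and 55.2 CPM in control cells (0.84). Cdh5, Cldn5, Postn, Col2a1, Tcf21, Foxc2 and Nfatc1 were also among the markers that named the classes.

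Across the 20 clusters with at least 50 cells in each library, the factors fell into different patterns. These correlations of log2(CPM + 10), averaged over the libraries, describe clusters that share libraries and depth, and carry no p. Prrx1 ran with Snai1 (Pearson r 0.91), Tbx20 with Prrx1 (0.89) and Twist1 with Tbx20 (0.87), whereas Msx1 ran closest to Tbx3 (0.66) among the factors and hardly with Prrx1 (0.08). Among 9208 genes, the closest to Msx1 were Cda (0.870) and Nhs (0.861), to Twist1 Nfix (0.967) and Tpbg (0.964), to Tbx20 Fbn2 (0.967) and Pygo1 (0.960), and to Prrx1 Ddr2 (0.967) and Pde1a (0.966). The closest to Prrx2 were Bambi (0.894) and 1110065P20Rik (0.886), to Tbx2 Cpa1 (0.921) and Nr2f1 (0.918), and to Tbx3 Cd109 (0.906) and Tspan7 (0.886). Snai1 was closest to Tcf21 (0.966) and Pde1a (0.966), Snai2 to Tpst1 (0.922) and Tril (0.920), and Msx2, at its low level, to Trim63 (0.894) and Hspb6 (0.894).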

How the data were processed

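Droplet single-cell RNA libraries of mitral leaflets, 1 per genotype, were analysed. The values deposited by the authors are whole-number counts of UMIs. The submitters' processing notes name Cell Ranger 5.0.0 and mm10. Counting options and any barcode filter are not given in the sources used here. Barcodes were kept with 500 or more genes, 1000 or more UMIs and a mitochondrial share under 20%. The mitochondrial limit removed 16.8% of mutant and 11.4% of control barcodes. The Scrublet method of scanpy 1.11.5, at 0.8% per 1000 barcodes, called 3.33% of mutant and 4.29% of control cells doublets (5.12% and 8.61% expected), which were removed, so doublets remain. Log-normalised counts of 2000 variable genes gave 30 principal components, 15 nearest neighbours and clusters with leidenalg 0.10.2 at resolution 0.8.

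A cluster was named from a marker list when at least 3 of its markers were found in at least 10% of cells and 1.5-fold above the median cluster, and unnamed when another list came within 1 log2 or its leading genes or low UMI counts went against the name. The lead of 1 log2 was set after the data were seen. It kept clusters 7, 8, 9, 15, 18, 19 and 26 out of the classes. A cell with a UMI of Xist and none of 4 Y-linked genes was female-type, the reverse male-type, and any other was left untyped (20.4% of mutant cells).

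Summed counts were scaled to CPM. Ratios have 0.5 counts added and exact conditional Poisson intervals, levels exact Poisson and shares exact Clopper-Pearson intervals, at 95%. UMIs of a pooled library are not independent embryos, so these cover counting error only. A ratio is given as a call at 1.5-fold and a mean of at least 10 CPM. The limit set by a count of 0 is 3 counts. The ratio was run on simulated Poisson counts with known answers, the same model that its interval assumes. That simulation cannot test spread between cells or embryos.

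The 10 factors and the gene lists were chosen with earlier results of these data known. Genes named are all 10 factors, Dicer1 and Nfatc1, the up to 4 genes of each list with the largest ratio in the valve classes, and for each factor the 2 most alike genes. Alternatives were stricter cell filters, no doublet removal, other clusterings, classes per cell, the same cluster weights in both libraries and thinned cells. The others were female-type cells only, median-of-ratios and TMM scaling (edgeR 4.0.16), other level floors and 5 counts added. Sequences are from GENCODE M21 and RefSeq tables of GRCm38, the assembly of mm10.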

Additional observations from a re-analysis of the deposited data

Results flagged for a closer look

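Tbx2 and Tbx3 differed in opposite directions in different classes, with each interval clear of no difference. For Tbx2 the log2 ratio of mutant over control was 0.92 in valve interstitial-like cells, from 141 mutant and 127 control UMIs, and -1.15 in melanocyte-like cells, from 11 mutant and 43 control UMIs. For Tbx3 it was 0.61 in endothelial-like cells with no subclass (0.48 in their cluster 6 alone) and 1.02 in mural-like cells, and -2.29 in melanocyte-like cells, from 1 mutant and 12 control UMIs. The melanocyte-like class held 21 mutant and 54 control cells. The differences between these classes were not tested, since each rests on 1 library per genotype.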

How the results depend on the processing

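In valve interstitial-like cells the ratio of Msx1 kept its direction and stayed past 1.5-fold under all 14 alternatives listed at the outset (-1.13 to -0.97) and the 3 added after the data were seen (-1.40 to -0.84). Prrx2 was past 1.5-fold under 11 of 14 (-0.71 to -0.51), and Tbx2 under all 13 that measured it (0.66 to 1.29). The count of lower factors became 1 with a class per cell from its markers, with the same cluster weights, in female-type cells only and, as an added alternative, in cluster 0 alone. The count of higher factors became 0 with a level floor of 50 CPM and, as added alternatives, in cluster 10 alone, where Tbx2 turned to -0.076, and with male-type mutant against female-type control cells, where the median log2 ratio moved to -0.24. In valve endothelial-like cells 1 factor was lower and 2 were higher with no level floor, and 1 was higher in cluster 5 alone. The cause of each change was not tested, except that the floors alter which factors are measured. Of 199 factor ratios over all settings, 174 stayed inside their counting interval, 24 fell outside it and 1, that of Tbx2 in cluster 10, was past 1.5-fold and changed sign. Ratios under 1.5-fold of Snai1 and Tbx3 in valve interstitial-like cells (-0.27 to 0.25 and -0.55 to 0.12 over the added alternatives) and of Msx1 in valve endothelial-like cells (-0.12 for male-type mutant cells) also changed sign. Without doublet removal the valve endothelial-like class held 104 mutant and 475 control cells, and Tbx20 there was 0.06. Other scalings moved all ratios by -0.05 to -0.03. No paired analysis was possible because there is 1 library per genotype. At this depth Msx2 in both valve classes, and 7 of the 10 factors in valve endothelial-like cells, had a mean under 10 CPM.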
